A study of Mus musculus with 15 samples.

Results

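The genes described here encode the contractile actin cytoskeleton of non-muscle and smooth muscle cells. They are the actins Actb, Actg1 and Acta2, the tropomyosins Tpm1, Tpm2, Tpm3 and Tpm4, the non-muscle myosin heavy chains Myh9 and Myh10, and the caldesmon gene Cald1. They were chosen by gene symbol and make up 10 of the 14615 gene symbols of the deposited table that have a transcript not antisense to a reference gene. All 10 passed the filter on low values, which kept genes reaching 1 FPKM or more in 3 or more of the 15 libraries. The table gave these genes 64 of its 48306 transcripts, and 30 of the 64 belonged to the tropomyosins.

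RNA-seq was made from lenses dissected out of wild-type mouse embryos of strain C57BL/6NTac at 4 embryonic days, E10.5 and E12.5 as well as E14.5 and E16.5, and from whole embryos of that strain and genotype, called whole body below. Each of these 5 groups had 3 libraries. Lenses were pooled for each library, 50 on the first of these days, 29 on the second, 18 on the third and 17 on the last, and the whole-body libraries carry ages from E10.5 to E12.5 in the labels, which do not say how the days were combined. The whole-body libraries were made to estimate which genes are enriched in the lens, and the stages to follow that enrichment through lens development. A library averages over all cell types of the dissected lens, which from the vesicle stage on include epithelium and fibre cells. Libraries of one group are biological replicates, per the labels. In such bulk samples a lower value can mean fewer cells of a type or less RNA per cell, and these cannot be told apart.

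Values are FPKM (fragments per kilobase of transcript and sequencing depth), which allow levels of different genes to be compared because they are scaled to length. A gene's value is the sum over its transcripts. The read depth behind the values is unknown. Fold changes are differences of log2(FPKM + 1), given as estimate ± SE, which makes the change of weakly expressed genes look smaller than it was. A gene was called where its Benjamini-Hochberg adjusted p over all 14532 genes tested was under 0.05 in limma, fitted to all 15 libraries together.

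As background, actin monomers assemble into filaments, and tropomyosins are coiled coils that lie along a filament and set which other proteins can bind it. Non-muscle myosin II heavy chains form bipolar filaments that slide actin filaments past each other. Caldesmon binds actin and tropomyosin and restrains the myosin ATPase. Tropomyosin genes make long and short proteins from alternative first exons, and further variants from alternative internal and last exons. In the embryonic lens, actomyosin drives the bending of the placode into a pit and the lens vesicle, and actin filaments line the membranes of the elongating fibre cells.

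The libraries matched their tissue label, and other tissues were also present. The 12 lens markers summed to between 1033 and 1191 FPKM at E10.5, between 142763 and 178320 at E16.5 and about 53 FPKM in whole body, and all 12 were higher at E10.5 than in whole body. Replicate 3 of E10.5 stood apart. Its 10 measured periocular mesenchyme and fibroblast markers summed to 2824 FPKM, against 383 and 371 in replicates 1 and 2. Replicate 1 of E12.5 also held more of that list, with 1213 FPKM against 534 and 433. Endothelial markers summed to between 604 and 656 FPKM at E10.5 and between 105 and 168 at E16.5, and 9 of 10 fell over that interval while 1 rose. Over all tested genes 36.7% were called lower and 37.2% higher. All 11 macrophage markers fell as well, as did 7 of 9 surface epithelium markers, none of the latter rising. The sums of 9 neural retina markers went from between 1161 and 1352 FPKM to between 49.01 and 59.2, with 6 lower and 2 higher. Of the periocular mesenchyme markers 9 of 10 fell and 1 rose, and of 8 erythroid markers 6 fell and 1 rose. Liver markers split the E10.5 libraries, with 485, 12.9 and 878 FPKM in replicates 1 to 3, and summed to no more than 2.29 FPKM at the later stages. Of the 9 smooth muscle and pericyte markers 3 rose and 4 fell, and their sum moved from between 45.3 and 66.7 FPKM at E10.5 to between 29.5 and 64.7 at E16.5. The smooth muscle genes Actg2 and Myocd were listed at 0 in all 3 E16.5 libraries. The part of these other cell types in the changes below was not tested.

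Between E10.5 and E16.5 the 10 genes parted. Tpm4 fell to 0.154 times its E10.5 value, Tpm1 to 0.261, Myh10 to 0.299, Myh9 to 0.535 and Tpm3 to 0.558 times, while Cald1 rose to 3.67 and Tpm2 to 2.52 times (ratios of FPKM + 1). The cytoplasmic actins Actb and Actg1 and the smooth muscle actin Acta2 did not pass the test. Thus 2 genes were called higher and 5 lower, against 37.2% of all tested genes called higher and 36.7% called lower. The median log2 difference of the 10 genes was -0.52, beside -0.01 over all genes. Most of this movement fell early. From E10.5 to E12.5, 2 were higher and 6 lower (29.5% and 26% of all genes), from E12.5 to E14.5, 1 and 5 (21.2% and 22.4%), and from E14.5 to E16.5, 0 and 1 (5.97% and 4.03%).

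**Figure D1:**
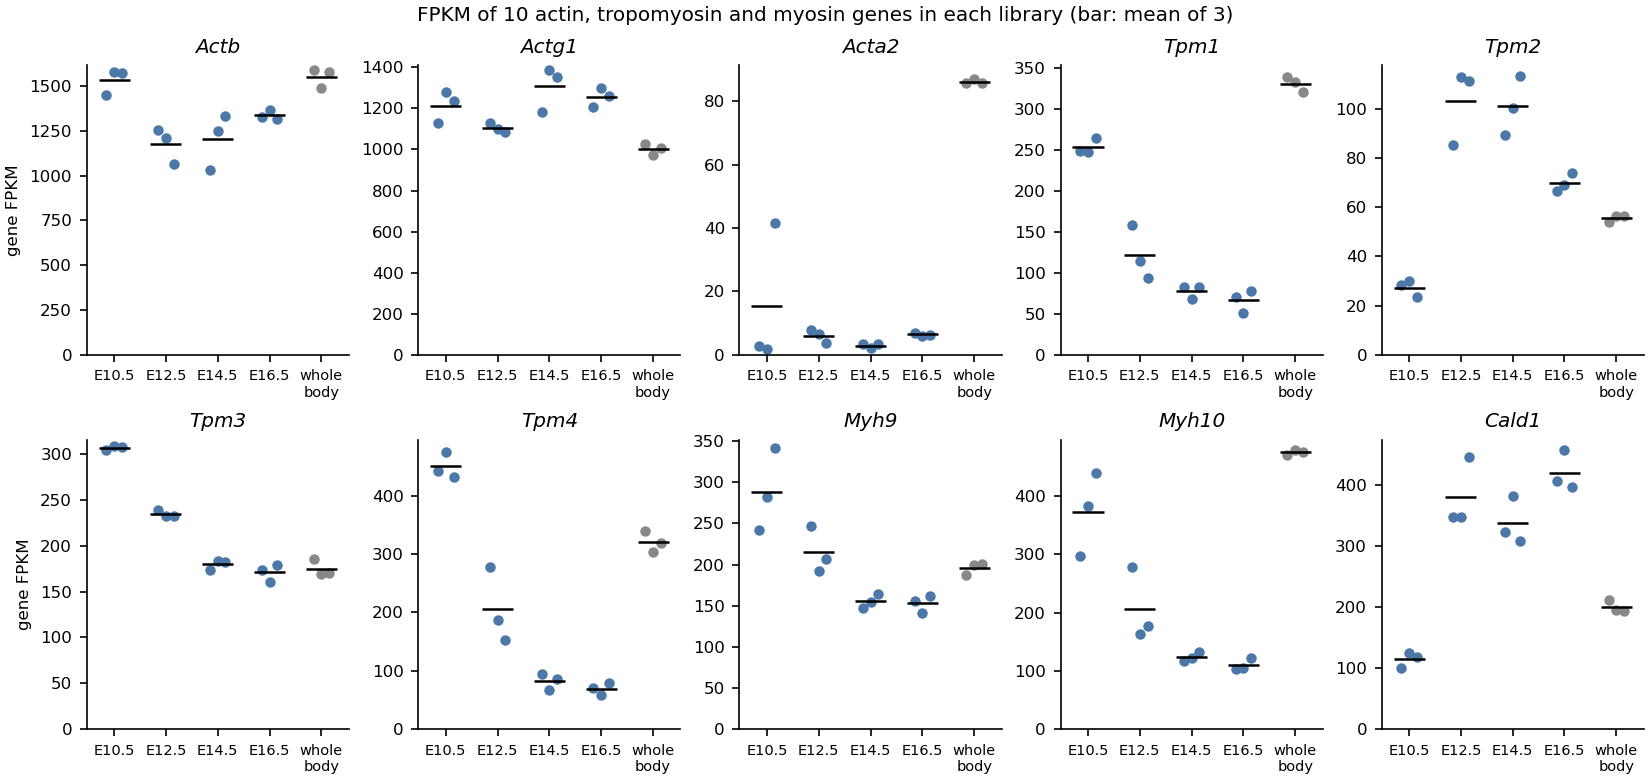
FPKM of the 10 genes in each library (points) with the mean of 3 libraries (bar), by lens stage and in whole body, each panel on its own linear axis. Tpm4, Tpm1 and Myh10 descend from E10.5 to E14.5, Cald1 and Tpm2 step up between E10.5 and E12.5, and the E10.5 point of Acta2 at 41.7 FPKM lies far above the other 2.

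The cytoplasmic actins were the most abundant of the 10 genes in every group. Actb (beta-actin, chr5:142903115-142906754 in mm10, minus strand) stood at 1449, 1579.8 and 1574 FPKM in the E10.5 libraries, at 1255, 1214 and 1067 at E12.5, then 1033, 1249 and 1335 in E14.5 lenses and 1326, 1365 and 1319 at E16.5. In whole body it was at 1589.6, 1493 and 1580.3 FPKM. E10.5 and whole body overlapped at the top. Below them E14.5 overlapped both E12.5 and E16.5, while every E16.5 library lay above every E12.5 library. Only the step from E10.5 to E12.5 was called among the steps between neighbouring stages (-0.38 ± 0.11, adjusted p = 0.00881). Against whole body Actb was lower at E12.5 (-0.40 ± 0.11, adjusted p = 0.00479) and E14.5 (-0.37 ± 0.11, adjusted p = 0.0063). At E16.5 it was not called (-0.22, adjusted p = 0.0845), but was called lower after quantile normalization (-1.75) and with crystallins left out (-0.74).

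Actg1 (gamma-actin, chr11:120345690-120348542, minus strand) was at 1127, 1279 and 1234 FPKM at E10.5, at 1128, 1098 and 1085 at E12.5, then 1183, 1389 and 1355 in E14.5 lenses and 1206, 1299.98 and 1259 at E16.5. Whole body lay below every lens library, at 1028, 972 and 1005 FPKM. The 4 lens stages overlapped in a chain when ordered by their means. Actg1 was called higher than whole body at E10.5 (0.28, adjusted p = 0.0205), at E14.5 (0.38, adjusted p = 0.00153) and at E16.5 (0.33, adjusted p = 0.00482), but these directions depended on the scaling: after quantile normalization the differences were -0.05, -0.94 and -1.07, and with crystallins left out of the totals those of E14.5 and E16.5 were -0.06 and -0.20. The call at E10.5 was also lost without replicate 2 of E10.5 (adjusted p = 0.0768), without replicate 3 (0.0602), or without whole-body replicate 2 (0.0708) or 3 (0.0546). A step up from E12.5 to E14.5 (0.24, adjusted p = 0.0463) was -0.24 after quantile normalization and -0.01 with crystallins left out, and its call was lost when any of 13 of the 15 libraries was left out (adjusted p between 0.0509 and 0.146) or with the replicate number as a block (adjusted p = 0.0556).

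Together the 3 actins summed to 2763 ± 159.9 FPKM at E10.5, then to 2288 at E12.5 and 2518 in E14.5 lenses, and to 2598 ± 67.0 at E16.5 and 2642 ± 79.8 in whole body (SD, n = 3). The deposited values are not scaled to a common total, and their sum per library ran from 707562 to 1629915 as crystallins accumulated. As a share of all FPKM the actins were at 0.370% ± 0.0070 at E10.5, 0.249% ± 0.0267 at E12.5, then 0.189% ± 0.0261 at E14.5, 0.170% ± 0.0104 at E16.5 and 0.367% ± 0.0054 in whole body. No actin passed the test of its level over that interval, while the share at E16.5 lay below that at E10.5 in every library. With the 16 crystallin genes left out and the remaining totals made equal, the median of all genes moved by -0.38 between E10.5 and E16.5, to -0.39. On that scale Actb was at -0.68 (adjusted p = 3.13e-05) and Actg1 at -0.43 (adjusted p = 0.000136), and relative to the median of all genes they were at -0.28 and -0.03. Quantile normalization gave -1.70 for Actb and -1.02 for Actg1 with a median of all genes of -0.04.

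**Figure D2:**
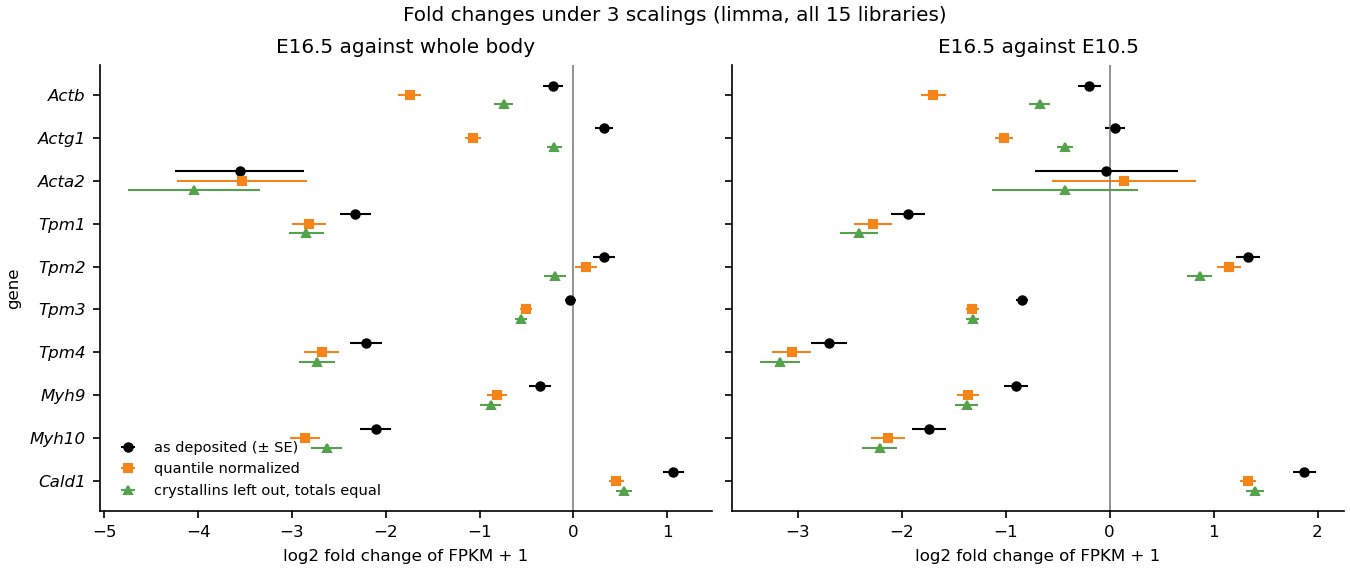
Log2 difference of each of the 10 genes between E16.5 and E10.5 with the values as deposited and after rescaling. In this comparison Tpm1, Tpm3, Tpm4, Myh9 and Myh10 lie below 0 and Tpm2 and Cald1 above 0 on each scale. Actg1 lies at 0.05 as deposited and at -1.02 after quantile normalization.

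The E16.5 libraries differed from E10.5 in the make-up of actin transcripts. The main beta-actin transcript Actb-201 went from 1324, 1476 and 1428 FPKM to 1028, 1089 and 1059.9 (-0.41 ± 0.10, adjusted p = 0.00492 over 46432 transcripts), and its share of Actb from 91.85% to 79.21% (-0.21, adjusted p = 0.0024, but 0.134 with a prior without trend), with 97.39% in whole body. Transcripts were called higher in 18.2% and lower in 17% of all tested ones in this comparison. The coding transcript Actb-208 stood at 97.5, 78.5 and 115 FPKM at E10.5 and at 192, 161 and 144 at E16.5 (0.77 ± 0.26, adjusted p = 0.0379), beside 16.2, 13.8 and 26.1 FPKM in whole body. Its rise lost the call after quantile normalization (0.29), with crystallins left out (0.30), with the replicate block (adjusted p = 0.0609), with a prior without trend (0.0555), and without replicate 1 or 2 of E10.5 (0.0769 and 0.133) or of E16.5 (0.12 and 0.0768). TCONS_00113407, a partial match of Actb, rose from 11.06, 10.7 and 12.7 FPKM to 67.4, 58.3 and 67.5 (2.39 ± 0.22, adjusted p = 2.25e-06), with 4.99, 10.3 and 9.78 in whole body, and kept its call in the 24 alternative settings that include it.

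Transcripts annotated as retaining an intron rose in the actins. The 8 such transcripts of the 10 genes belong to Actb (1), Actg1 (3), Tpm1 (1) and Tpm3 (3). All 4 from the actins rose from E10.5 to E16.5, 3 of the 4 from the tropomyosins fell and 1 was not called. The 4 actin calls held in all 25 alternative settings, while that of Tpm3-215 (-0.81, adjusted p = 0.0404) was lost in 11. Across the table as a whole, 8.78% of 3302 intron-retaining transcripts were higher and 21.5% were lower. The largest, Actg1-209, went from 8.44, 6.05 and 7.79 FPKM to 19.8, 26.8 and 28.3 (1.62 ± 0.19, adjusted p = 2.73e-05), with 3.43, 4.14 and 3.03 in whole body. Their sum in Actg1 rose from 10.3 ± 1.97 FPKM at E10.5 through 13.8 at E12.5 and 31.5 at E14.5 to 36.2 ± 4.66 at E16.5, which was 0.861% and 2.88% of the gene at the 2 ends. The E10.5 and E16.5 libraries did not overlap in either measure. These transcripts were singled out after their values were seen.

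Acta2 (smooth muscle alpha-actin, chr19:34241090-34255590, minus strand) was low in the lens. Its values were 2.70, 1.75 and 41.7 FPKM at E10.5, 7.70, 6.42 and 3.83 at E12.5, then 3.37, 2.04 and 3.31 in E14.5 lenses and 6.95, 5.97 and 6.31 at E16.5, beside 85.9, 87.1 and 85.7 in whole body. Whole body lay above every lens library. Acta2 was lower than whole body at each stage, from -3.53 ± 0.69 at E10.5 (adjusted p = 0.000518) to -4.50 ± 0.69 at E14.5 (adjusted p = 2.48e-05). The high E10.5 value came from replicate 3, the library with the high mesenchyme sum. With that library Acta2 differed by -0.03 ± 0.69 between E16.5 and E10.5 (adjusted p = 0.973), and without it by 1.21 ± 0.24 (adjusted p = 0.000357). Without it the steps also separated: E12.5 was above E10.5 by 1.09 (adjusted p = 0.00163), E14.5 below E12.5 by -0.82 (adjusted p = 0.00654) and E16.5 above E14.5 by 0.94 (adjusted p = 0.0128). The coding sequences of Actb and Actg1 are identical at 88.6% of positions and those of Actb and Acta2 at 83.3%, so reads of these genes can be split uncertainly where the counting allowed it.

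Tropomyosins changed in amount and in mix. Their summed level fell from 1039 ± 20.3 FPKM at E10.5 through 666 ± 87.3 and 441 ± 21.8 to 377 ± 36.5 at E16.5, with 883 ± 31.3 in whole body (SD, n = 3). Tpm4 supplied 43.4% ± 1.36 of that sum at E10.5 and 18.3% ± 1.13 at E16.5. Tpm3 went from 29.6% ± 0.46 to 45.6% ± 1.89, Tpm2 from 2.62% ± 0.32 to 18.7% ± 1.61 and Tpm1 from 24.4% ± 1.22 to 17.5% ± 2.19. Whole body had 37.5% Tpm1, 6.30% Tpm2, 19.8% Tpm3 and 36.4% Tpm4. Tpm4 was the leading tropomyosin at E10.5 and Tpm3 at E16.5.

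**Figure D3:**
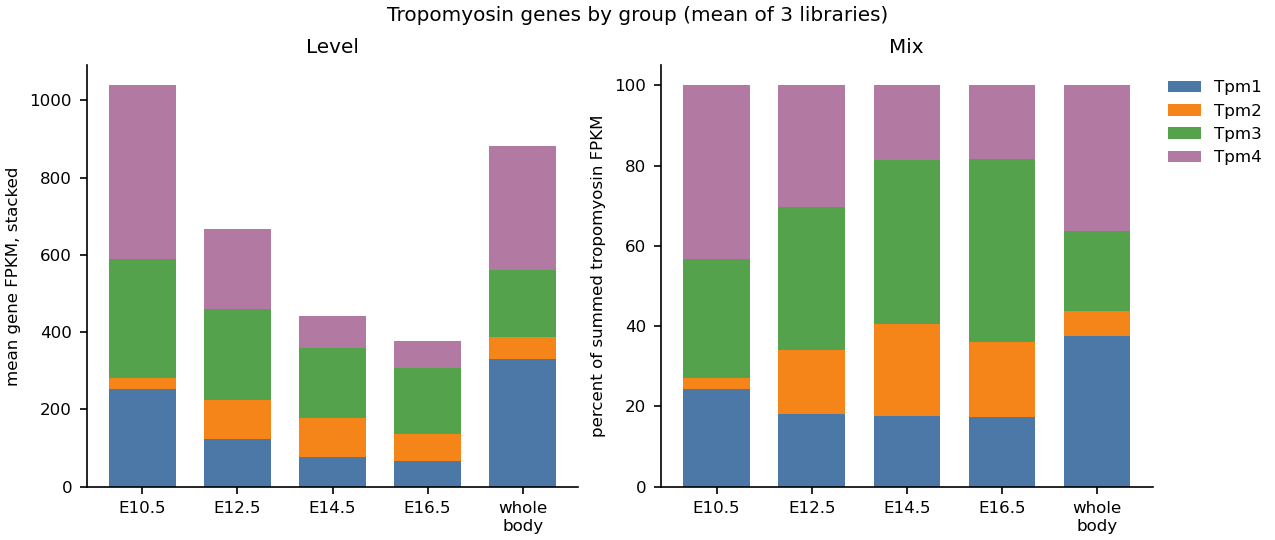
Tropomyosin genes by group as stacked mean FPKM of 3 libraries (left) and as percent of their summed FPKM (right). The total drops from 1039 to 377 FPKM between E10.5 and E16.5, and the Tpm3 band widens from 29.6% to 45.6% while the Tpm4 band narrows from 43.4% to 18.3%.

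Tpm4 (chr8:72134975-72153142, plus strand), a gene for a short tropomyosin of stress fibres and the cell cortex, had 1 transcript, Tpm4-201. It stood at 443, 476 and 433 FPKM at E10.5, at 278, 187 and 153 at E12.5, then 93.8, 67.7 and 85.0 in E14.5 lenses and 70.8, 57.6 and 78.9 at E16.5. Whole body was at 340.1, 305 and 319 FPKM. E10.5, whole body and E12.5 were each apart from their neighbours in that order, and E14.5 and E16.5 overlapped. The steps were -1.17 ± 0.18 (adjusted p = 5.58e-05), -1.28 ± 0.18 (adjusted p = 4.64e-05) and, from E14.5 to E16.5, too small to be called. At E10.5 Tpm4 was higher than whole body by 0.49 (adjusted p = 0.0282), a call lost without replicate 1 or 2 of E10.5 (adjusted p = 0.0545 and 0.0817) or without whole-body replicate 2 or 3 (0.0834 and 0.0663). It was also lost after quantile normalization (0.38, adjusted p = 0.0916) and with crystallins left out (0.44, adjusted p = 0.065). At E16.5 it was lower by 2.21 on the log2 scale (-2.21 ± 0.18, adjusted p = 1.71e-08). An antisense gene shares exon bases with Tpm4, and whether counting used the strand is not given in the sources used here.

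Tpm1 (chr9:67022590-67049406, minus strand), which makes long muscle and stress fibre tropomyosins and several short ones, followed a like course. It was at 249, 247 and 264 FPKM at E10.5, at 159, 115 and 93.4 at E12.5, then 83.0, 67.9 and 83.2 in E14.5 lenses and 70.2, 50.6 and 78.2 at E16.5, beside 339, 333 and 321 in whole body. The groups ran from whole body through E10.5 and E12.5 to E14.5 and E16.5, and only the last pair overlapped. The differences were -1.08 ± 0.17 from E10.5 to E12.5 (adjusted p = 7.65e-05) and -0.62 ± 0.17 from E12.5 to E14.5 (adjusted p = 0.00811). At E10.5 the difference from whole body missed the threshold (-0.39, adjusted p = 0.0637; 0.0222 without replicate 1 of E12.5, 0.0334 without replicate 3 of E12.5 and 0.0344 without replicate 2 of E16.5). It was called after quantile normalization (-0.54, adjusted p = 0.0173), with only complete reference matches (adjusted p = 0.0178) and with only the 2 groups in the fit (adjusted p = 0.00104). At E16.5 it was -2.32 ± 0.17 (adjusted p = 5.63e-09).

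Replicate 1 of E12.5 had the highest E12.5 values of Tpm1, Tpm4 and Myh10 and also the highest endothelial sum, 557 FPKM against 320 and 283. Without it the differences between E12.5 and E10.5 were -1.28 for Tpm1, -1.41 for Tpm4 and -1.12 for Myh10, larger in size than with it. At E14.5 replicate 2 was the lowest for Tpm1 and Tpm4 and had the lowest endothelial sum, 88.9 FPKM against 163 and 106. The same held at E16.5, with an endothelial sum of 105 FPKM in replicate 2 against 163 and 168. Myh10 did not follow this order, being lowest in replicate 1 of both stages. Smooth muscle and pericyte markers were likewise highest in replicate 1 of E12.5, with 135.6 FPKM against 73.4 and 56.4. Their sum was lowest in replicate 2 of E14.5 (17.6 FPKM) and of E16.5 (29.5 FPKM). Erythroid sums and those of megakaryocytes and platelets had the same order. Macrophage and mesenchyme sums were also highest in replicate 1 of E12.5, but lowest in replicate 3 of E14.5. The part of these cell types in the values of the genes was not tested.

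Tpm3 (chr3:90072649-90100902, plus strand), the gene for widely expressed short tropomyosins and a slow muscle form, varied little within groups. It was at 305, 309 and 308 FPKM at E10.5, at 239.5, 233 and 232 at E12.5, then 174, 184 and 182 in E14.5 lenses and 173, 161 and 179.7 at E16.5. Whole body was at 186, 169.6 and 169.9 FPKM. E10.5 and E12.5 were apart from each other and from the rest, and E14.5, whole body and E16.5 overlapped. Tpm3 fell by 0.39 from E10.5 to E12.5 (-0.39 ± 0.06, adjusted p = 5.49e-05) and by 0.38 from E12.5 to E14.5 (-0.38 ± 0.06, adjusted p = 0.000105). At E10.5 it was above whole body (0.81, adjusted p = 1.75e-08), and at E16.5 it was not called (-0.03, adjusted p = 0.608), although quantile normalization gave -0.51 and leaving out the crystallins -0.56, both called.

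Under this smooth fall Tpm3 changed its transcripts. Of its 5 transcripts, 2 carry a full coding sequence from the internal start, Tpm3-201 and Tpm3-202, each of 744 coding bases. They share 6 coding exons and differ in 1 internal exon and at the end of the coding sequence. Each internal exon is 76 bases long, at chr3:90088401-90088476 in Tpm3-201 and chr3:90089048-90089123 in Tpm3-202, and they are shown because the choice between them moved with lens development. Capitals mark the 37 positions at which the pair differ, which leaves 51.3% identical. All sequences are 5′ to 3′ on the plus strand of mm10, read from the reference transcripts of GENCODE vM21.
Tpm3-201 internal exon: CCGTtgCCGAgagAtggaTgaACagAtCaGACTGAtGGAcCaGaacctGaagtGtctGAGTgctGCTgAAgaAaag
Tpm3-202 internal exon: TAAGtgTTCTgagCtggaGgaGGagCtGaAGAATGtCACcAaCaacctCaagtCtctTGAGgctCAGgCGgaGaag

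The last coding exon of Tpm3-201 lies at chr3:90099528-90099607 (80 coding bases). For Tpm3-202 the exon at chr3:90091013-90091091 (79 coding bases) is printed under that name, although its coding sequence ends in a later exon. That later exon is not shown, so the printed coding end of Tpm3-202 is incomplete. Only coding bases are shown, in lower case throughout because they were not aligned.
Tpm3-201 last coding exon: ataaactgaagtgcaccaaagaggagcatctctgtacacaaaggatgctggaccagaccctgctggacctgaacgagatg
Tpm3-202 last coding exon: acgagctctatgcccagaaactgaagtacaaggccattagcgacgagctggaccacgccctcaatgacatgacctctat

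Tpm3-202 rose from near the whole-body level to a major part of the gene. It stood at 7.77, 4.92 and 5.29 FPKM at E10.5, at 42.5, 54.9 and 58.5 at E12.5, then 41.6, 61.8 and 48.6 in E14.5 lenses and 52.7, 62.2 and 57.5 at E16.5, beside 4.93, 3.12 and 5.59 in whole body. The 3 later stages overlapped one another and none overlapped E10.5 or whole body. Tpm3-201 fell meanwhile from 276, 289 and 287 FPKM at E10.5 through 188, 166 and 169.01 at E12.5 and 122, 114 and 123 at E14.5 to 108, 86.9 and 111 at E16.5, beside 176, 161 and 160.4 in whole body.

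As shares of the gene, Tpm3-202 was at 1.95% ± 0.52 at E10.5, 22.2% ± 3.90 at E12.5, then 28.1% ± 4.98 in E14.5 lenses and 33.7% ± 4.43 at E16.5, with 2.59% ± 0.73 in whole body (SD, n = 3). Tpm3-201 was at 92.3% ± 1.66, 74.2% ± 3.79, 66.7% ± 4.11 and 59.5% ± 4.65, with 94.6% ± 0.15 in whole body. Shares were tested as the log2 difference between transcript and gene, over 41864 transcripts of genes with several. Between E16.5 and E10.5 the share of Tpm3-202 rose by 3.92 ± 0.28 (adjusted p = 1.97e-06) and that of Tpm3-201 fell by 0.63 (-0.63 ± 0.07, adjusted p = 4.52e-05), in a comparison where 7.44% of all shares were higher and 8.78% lower. Their levels changed by 3.08 ± 0.22 (adjusted p = 2.44e-07) and -1.47 ± 0.09 (adjusted p = 6.05e-08). Against whole body the share of Tpm3-202 was higher at E16.5 (3.46 ± 0.28, adjusted p = 2.23e-06) and not called at E10.5 (-0.47, adjusted p = 0.309). In the 25 alternative settings the change of its share from E10.5 to E16.5 ran from 3.81 to 4.11. The intron-retaining transcript Tpm3-207 was matched by a longer and a shorter entry. The longer was at 12.2, 7.31 and 6.10 FPKM at E10.5 and at 11.01, 9.89 and 9.38 at E16.5. The shorter went from 4.40, 4.77 and 7.08 FPKM at E10.5 to 0, 0.14 and 0 at E16.5.

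**Figure D4:**
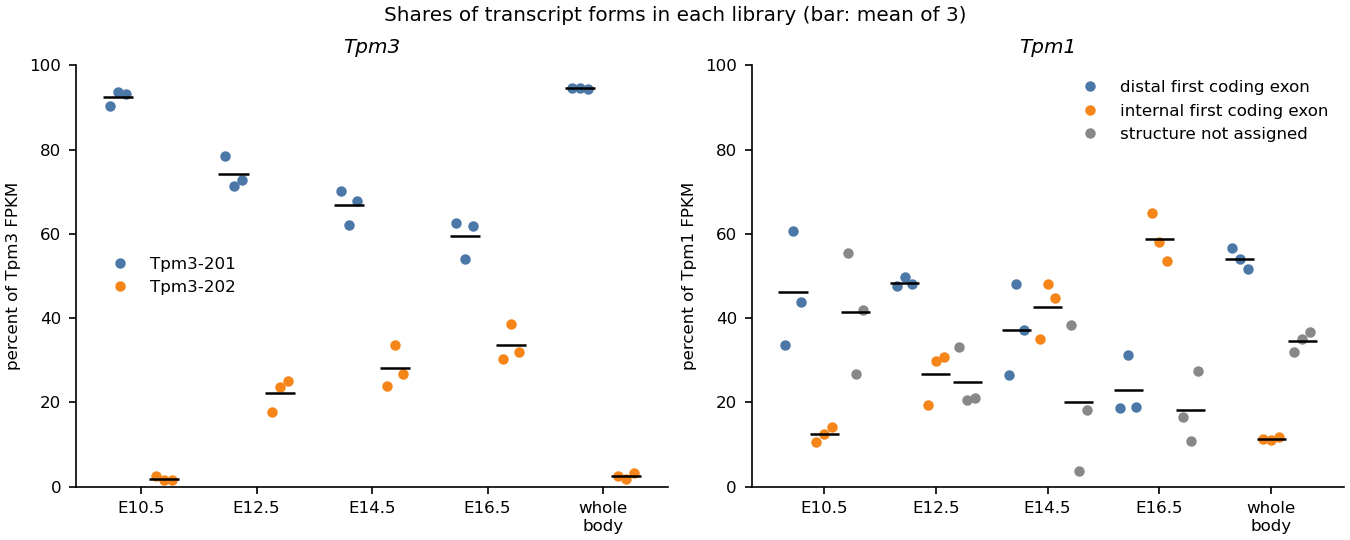
Percent of the gene's FPKM held by transcript forms in each library (points) with the mean of 3 (bar), for Tpm3 (left) and for Tpm1 grouped by first coding exon (right). Tpm3-202 climbs from 1.95% to 33.7% and the internal-start forms of Tpm1 from 12.5% to 58.8% between E10.5 and E16.5, while whole body stays at 2.59% and 11.3%. Tpm1 transcripts of unassigned structure hold 41.4% at E10.5 and 18.25% at E16.5.

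Tpm1 also shifted between forms, with less precise values. Of its 18 transcripts, 8 start coding in the distal first exon (long proteins, from 852 or more coding bases). Another 4 start in an internal first exon (short proteins, from 735 or 744 coding bases). The full coding sequence of the other 6 is not given, as they are partial matches or matches to reference transcripts without one. The distal forms summed to 83.9, 150.2 and 116 FPKM at E10.5 and to 13.1, 15.8 and 14.9 at E16.5, with 192, 179.9 and 165 in whole body. The internal forms summed to 26.7, 30.9 and 37.5 FPKM at E10.5, 30.7, 34.3 and 28.9 at E12.5, then 29.2, 32.7 and 37.2 in E14.5 lenses and 45.6, 29.4 and 41.8 at E16.5, with 38.2, 36.7 and 37.6 in whole body. The distal forms were lower in every E16.5 library than in every E10.5 library, while the internal forms overlapped. The internal forms were thus 10.7%, 12.5% and 14.2% of Tpm1 in the E10.5 libraries and 64.9%, 58.1% and 53.5% at E16.5. These sums were not tested.

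Among single Tpm1 transcripts the distal Tpm1-213 fell from 18.1, 87.3 and 38.1 FPKM at E10.5 to 0.01, 2.48 and 3.99 at E16.5 (-3.96 ± 0.72, adjusted p = 0.000839), beside 85.0, 57.3 and 51.6 in whole body. Without replicate 1 of E16.5 the fall was -3.27 (adjusted p = 0.00388). The distal Tpm1-203 was at 26.3, 31.3 and 39.8 FPKM at E10.5 and was listed at 0 in all 3 E16.5 libraries (adjusted p = 0.000911). Distal Tpm1-201 fell from 19.2, 17.2 and 15.9 to 3.77, 5.26 and 0.55 FPKM (-2.36 ± 0.41, adjusted p = 0.000575), or by 1.75 without replicate 3 of E16.5 (-1.75, adjusted p = 0.000205). An exception among the distal forms was Tpm1-205, which was nearly absent at E10.5 (0, 0.42 and 0.12 FPKM), reached 21.8, 8.01 and 4.52 at E12.5 and stood at 7.53, 4.56 and 7.32 at E16.5, a rise of 2.65 ± 0.52 from E10.5 (adjusted p = 0.00138). Whole body held 73.2, 72.6 and 73.95 FPKM of it, above every lens library.

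Of the internal forms, Tpm1-212 was listed at 0, 0 and 0.01 FPKM at E10.5 and at 0 in all 3 whole-body libraries. It reached 0, 0.57 and 3.40 FPKM at E12.5, then 6.23, 12.7 and 18.5 in E14.5 lenses and 14.1, 4.98 and 14.1 at E16.5 (adjusted p = 0.000237 for the level and 7.68e-05 for the share, E16.5 against E10.5). Tpm1-204 was at 14.8, 23.9 and 14.3 FPKM at E10.5 and 14.7, 14.6 and 11.3 at E16.5, without a call, and was above whole body (3, 1.32 and 3.92 FPKM) by 2.35 ± 0.29 at E10.5 (adjusted p = 5.55e-05) and 2.02 ± 0.29 at E16.5 (adjusted p = 8.49e-05). Tpm1-211 was at 3.47, 0.01 and 18.8 FPKM at E10.5, a spread too wide to place it, and at 12.5, 7.30 and 14.3 at E16.5.

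The transcript of Tpm1 with the highest E10.5 mean, TCONS_00147390, shares only part of its junctions with the reference. It went from 86.4, 36.3 and 82.1 FPKM to 0, 0.17 and 0.25 (-5.83 ± 0.83, adjusted p = 0.00012), with 91.6, 95.3 and 95.4 in whole body. The other incomplete match named, TCONS_00147408, was at 27.7, 17.8 and 19.6 FPKM at E10.5 and at 4.79, 2.34 and 13.5 at E16.5 and was not called (-1.77, adjusted p = 0.0621), but was called after quantile normalization (-1.89) and with crystallins left out (-2.18), and without replicate 1 or 2 of E14.5 or replicate 3 of E16.5. Because these 2 transcripts were assembled from the data and their coding structure is not given, the split of Tpm1 into long and short forms is incomplete.

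Tpm2 (beta-tropomyosin, chr4:43514711-43523765, minus strand), best known from skeletal and smooth muscle, moved the opposite way. It was at 28.4, 30.2 and 23.3 FPKM at E10.5, at 85.2, 113 and 112 at E12.5, then 89.5, 100.3 and 113 in E14.5 lenses and 66.6, 69.3 and 74.0 at E16.5, beside 53.9, 56.5 and 56.4 in whole body. E12.5 and E14.5 overlapped at the top, followed by E16.5, whole body and E10.5, each apart from the next. It rose by 1.88 ± 0.12 from E10.5 to E12.5 (adjusted p = 7.38e-09) and fell by 0.52 from E14.5 to E16.5 (-0.52, adjusted p = 0.011), the latter lost without replicate 3 of E14.5 (adjusted p = 0.0572) or replicate 1 of E16.5 (0.0507). Against whole body it was lower at E10.5 (-1.01 ± 0.12, adjusted p = 3.39e-06) and higher at E12.5 (0.87, adjusted p = 9.34e-06) and E14.5 (0.84, adjusted p = 8.1e-06). The E16.5 difference from whole body (0.33, adjusted p = 0.0182) was -0.195 with the crystallins left out, and its call was lost without replicate 3 of E16.5 or whole-body replicate 1.

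Most of the Tpm2 FPKM lay in 3 transcripts that match the reference only in part, which held 69.2% ± 8.46 of the gene's FPKM at E10.5, 89.4% ± 5.99 at E16.5 and 88.7% ± 3.53 in whole body. The largest, TCONS_00097029, rose from 9.47, 14.9 and 14.3 FPKM at E10.5 to 42.1, 44.9 and 47.3 at E16.5 (1.74 ± 0.16, adjusted p = 2.91e-06), beside 25.7, 27.8 and 31.4 in whole body. TCONS_00097033 was listed at 0, 0 and 1.80 FPKM at E10.5 and stood at 10.9, 10.7 and 7.65 at E16.5 (adjusted p = 3.37e-05). The complete match Tpm2-201 peaked at E12.5, with 16.0, 30.3 and 20.7 FPKM, and was at 8.74, 6.03 and 2.61 at E10.5 and 5.70, 2.61 and 11.8 at E16.5. When only complete matches were counted, Tpm2 differed by -0.25 between E16.5 and E10.5 and by 0.36 between E10.5 and whole body, the reverse of the gene sums. The fourth named transcript, TCONS_00097031, was between 0 and 11.1 FPKM in the lens.

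Counted over all 30 tropomyosin transcripts, 5 rose and 13 fell from E10.5 to E16.5, where 18.2% of all transcripts were higher and 17% lower. The 13 transcripts too low to be named reached at most 15.45 FPKM in a library, and 7 of them fell while 0 rose and 6 were not called. In limma 6 tropomyosin transcripts were higher and 5 lower at E10.5 than in whole body (13.2% and 13.4% of all transcripts), and 5 were higher and 10 lower at E16.5 (22.2% and 22.1%). Of 29 shares, 9 rose and 4 fell from E10.5 to E16.5 (7.44% and 8.78% of all shares), and 6 were higher and 3 lower at E10.5 than in whole body (9.21% and 7.07% of all shares).

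Both non-muscle myosin heavy chains fell. Myh9 (heavy chain of myosin IIA, chr15:77760587-77842175, minus strand) was at 242, 283 and 342 FPKM at E10.5, at 247, 192 and 207 at E12.5, then 147, 154 and 164 in E14.5 lenses and 156, 141 and 162 at E16.5, beside 187, 199.7 and 200.2 in whole body. E10.5, E12.5 and whole body overlapped in sequence, and all lay above E14.5 and E16.5. Steps of -0.42 ± 0.11 from E10.5 to E12.5 (adjusted p = 0.00581) and -0.46 ± 0.11 from E12.5 to E14.5 (adjusted p = 0.00412) were called. Myh9 was above whole body at E10.5 (0.55, adjusted p = 0.000825) and below it at E14.5 (-0.33, adjusted p = 0.0142) and E16.5 (-0.36, adjusted p = 0.00922).

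Myh10 (heavy chain of myosin IIB, chr11:68691559-68816632, plus strand) was highest in whole body, at 470.1, 479 and 477 FPKM. In the lens it was at 298, 382 and 439 FPKM at E10.5, at 278, 163 and 176 at E12.5, then 117.5, 122 and 133 in E14.5 lenses and 104, 105 and 122 at E16.5. Whole body, E10.5 and E12.5 were apart in that order, and E14.5 and E16.5 overlapped. It fell by 0.88 from E10.5 to E12.5 (-0.88 ± 0.17, adjusted p = 0.000414) and by 0.68 from E12.5 to E14.5 (-0.68 ± 0.17, adjusted p = 0.00393), and at E16.5 was below whole body by 2.11 on the log2 scale (-2.11 ± 0.17, adjusted p = 1.56e-08). At E10.5 its difference from whole body was -0.37 (adjusted p = 0.0747), and it was called without replicate 3 of E10.5 (-0.49, adjusted p = 0.0306) and without replicate 1 of E12.5 (adjusted p = 0.0125), and after quantile normalization (-0.73) and with crystallins left out (-0.42).

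The balance of the pair moved toward Myh9, which made up 43.7% ± 1.15 of their sum at E10.5, 51.7% ± 4.02 at E12.5, then 55.6% ± 0.21 in E14.5 lenses and 58.2% ± 1.61 at E16.5, and 29.2% ± 0.59 of whole body (SD, n = 3). No E10.5 library overlapped an E16.5 library in this share. Myh10 was also made up differently in some lens stages. Myh10-203 held 94.15% ± 1.24 of the gene in whole body, 69.86% ± 11.65 at E10.5, 71.45% ± 16.26 at E12.5, then 87.45% ± 7.09 in E14.5 lenses and 71.23% ± 3.36 at E16.5. Its share missed the threshold against whole body at E10.5 (-0.44, adjusted p = 0.0579) and E16.5 (-0.40, adjusted p = 0.0603). Most of the rest of the lens value was TCONS_00019797, a partial match to Myh10-201. That transcript stood at 97.5, 59.3 and 133 FPKM at E10.5, then 18.9, 19.9 and 3.82 in E14.5 lenses and 25.4, 27.4 and 35.0 at E16.5, beside 10.2, 0.07 and 11.1 in whole body, so that E14.5 overlapped whole body. Its share at E16.5 was above that of whole body by 4.62 ± 0.89 (adjusted p = 0.00205), by 3.47 without whole-body replicate 2 (adjusted p = 0.00409) and by 5.22 without whole-body replicate 3 (adjusted p = 0.00249).

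Cald1 (chr6:34598500-34775473, plus strand) had the largest rise of the 10 between E10.5 and E16.5, although Tpm2 rose more up to E12.5. It stood at 100.1, 124 and 118 FPKM at E10.5, at 348, 348 and 446 at E12.5, then 323, 383 and 308 in E14.5 lenses and 407, 457 and 398 at E16.5, beside 211, 195 and 194 in whole body. At the top E12.5 overlapped both E16.5 and E14.5, which did not overlap each other. Whole body lay apart below them and E10.5 apart at the bottom. It rose by 1.72 ± 0.11 from E10.5 to E12.5 (adjusted p = 1.21e-08), and neither later step was called over all libraries. The step from E14.5 to E16.5 was called without replicate 3 of E12.5 (0.32, adjusted p = 0.0442) or replicate 2 of E14.5 (0.41, adjusted p = 0.0395), and that from E12.5 to E14.5 after quantile normalization (-0.47) and with crystallins left out (-0.42). Against whole body Cald1 was lower at E10.5 (-0.81, adjusted p = 2.22e-05) and higher at E12.5 (0.92, adjusted p = 3.74e-06), E14.5 (0.75, adjusted p = 1.93e-05) and E16.5 (1.07, adjusted p = 3.92e-07).

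The 12 Cald1 transcripts begin at several places, and the starts did not move together. A distal start, that of Cald1-204 at position 34598565, leads 4 transcripts, and an internal start, that of Cald1-203 at position 34709442, leads 3. A second internal start belongs to Cald1-201. RefSeq gives a promoter window on GRCm38.p6 beside each of the first 2 starts, and both are printed because their transcripts went opposite ways. They hold the 250 bases before the RefSeq start, in lower case because no motif searched for was found in them.
Cald1 distal promoter, chr6:34598254-34598503, plus strand: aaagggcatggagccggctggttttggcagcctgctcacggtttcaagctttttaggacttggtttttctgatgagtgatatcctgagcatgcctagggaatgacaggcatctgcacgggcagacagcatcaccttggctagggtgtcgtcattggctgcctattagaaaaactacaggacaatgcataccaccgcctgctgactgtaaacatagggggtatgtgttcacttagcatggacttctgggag
Cald1 internal promoter, chr6:34709194-34709443, plus strand: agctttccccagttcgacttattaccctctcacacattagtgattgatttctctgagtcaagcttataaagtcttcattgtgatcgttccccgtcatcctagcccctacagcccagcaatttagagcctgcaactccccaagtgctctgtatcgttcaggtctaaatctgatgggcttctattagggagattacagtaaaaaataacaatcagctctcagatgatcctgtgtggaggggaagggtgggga

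From the distal start Cald1 gave 15.9, 18.7 and 17.9 FPKM at E10.5, 59.96, 32.2 and 19.0 at E12.5, then 6.67, 3.74 and 7.49 in E14.5 lenses and 11.1, 2.55 and 5.36 at E16.5, beside 69.6, 74.7 and 80.2 in whole body. From the first internal start it gave 50.8, 61.7 and 57.0 FPKM at E10.5, 213, 231 and 319 at E12.5, then 241, 286 and 243 in E14.5 lenses and 256, 314 and 281 at E16.5, beside 115, 105 and 96.3 in whole body. The distal start was lower in every E16.5 library than in every E10.5 library, and the internal start higher. The distal start supplied 15.35% of the gene at E10.5, 1.54% at E16.5 and 37.53% in whole body, and the first internal start 49.52%, 67.49% and 52.68%.

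Within these, Cald1-204 (distal) was at 11.5, 14.9 and 15.2 FPKM at E10.5, at 49.1, 26.7 and 9.34 at E12.5 and at 0.01, 0.01 and 0 at E16.5, and both its level (adjusted p = 0.000358) and its share (adjusted p = 0.000222) were called lower at E16.5 than at E10.5. Cald1-203 (first internal start) rose by 2.14 ± 0.15 (adjusted p = 1.92e-07), while its share did not pass the test (0.27, adjusted p = 0.0793). Cald1-201 (second internal start) was at 14.8, 22.6 and 23.96 FPKM at E10.5 and at 100.4, 104 and 82.4 at E16.5 (2.19 ± 0.30, adjusted p = 9.15e-05). In whole body it was only at 6.47, 3.58 and 2.08 FPKM, so that it stood above whole body by 2.15 at E10.5 (adjusted p = 0.000161) and by 4.35 ± 0.30 at E16.5 (adjusted p = 1.3e-07). In E12.5 the distal values were highest in replicate 1, the library with the high mesenchyme and endothelial sums, and the first internal start was highest in replicate 3.

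**Figure D5:**
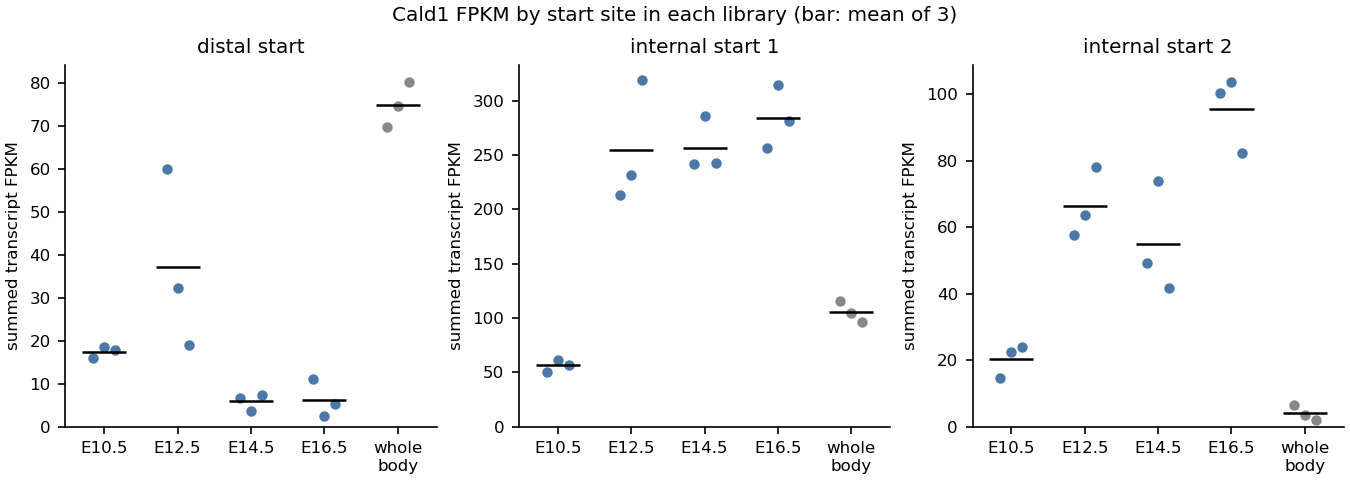
Cald1 FPKM summed by start site in each library (points) with the mean of 3 (bar), each panel on its own linear axis. The distal start is at most 11.1 FPKM at E14.5 and E16.5 and at least 69.6 in whole body, while both internal starts are higher at E12.5 and later than at E10.5.

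Promoter windows were searched for the CArG box, the binding motif of serum response factor, a known regulator of many actin cytoskeleton genes, on both strands. Only the exact pattern CCWWWWWWGG, with W for A or T, was counted. Motifs that differ from it by a letter were not counted, among them CCCTATATGG and CCTTGTTTGG in the Acta2 window. RefSeq entries were matched for 9 of the 10 genes, all but Actb, giving 11 windows of 250 bases. An exact match was found in 1 of them, that of Actg1, beginning 90 bases before the start, and in 1.47% of the 32851 windows in the RefSeq table. A match describes the letters only.

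Other genes of the actomyosin system were followed as lists. From E10.5 to E16.5, 37.2% of all tested genes were called higher and 36.7% lower. Of 24 tested genes of actin assembly and turnover, 13 rose and 8 fell from E10.5 to E16.5 (median 0.27, beside -0.01 over all genes). Gsn, which severs and caps filaments, rose from 29.4 to 1475 FPKM (5.64 ± 0.24), and Cap2, a cyclase-associated protein that recycles monomers, from 12.96 to 419 FPKM (4.92 ± 0.13). Cfl1, the main non-muscle cofilin, fell from 890 to 243 FPKM (-1.86 ± 0.12) and Tmsb10, which sequesters monomers, from 865 to 213 FPKM (-2.01 ± 0.15). At E10.5 this list had 9 genes above whole body and 5 below, against 24.6% of all genes above and 31.2% below.

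Crosslinkers and adhesion links mostly fell, 10 of 15 with 3 rising (median -0.76), against 36.7% of all genes lower and 37.2% higher. Lcp1 (L-plastin) fell from 78.2 to 9.47 FPKM (-2.97 ± 0.34) and Pls1 from 4.41 to 0.267 (-2.05 ± 0.33), while the cytolinker Plec rose from 46.4 to 470 FPKM (3.32 ± 0.14) and Ezr, a membrane linker, from 329 to 1165 FPKM (1.82 ± 0.12). Tropomodulins cap the pointed ends of tropomyosin-coated filaments. In a list of tropomodulins and the related leiomodins 4 genes were tested, of which 2 rose, 1 fell and 1 was not called. Tmod1 rose from 0.98 to 122 FPKM (6.04 ± 0.25) and Tmod2 from 18.6 to 40.3 (1.09 ± 0.15), and Tmod3 fell from 65.8 to 17.1 FPKM (-1.89 ± 0.12).

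Of the 6 genes for myosin light chains, Myh14 and the light chain kinase, 3 rose and 3 fell (median 0.14). Over all genes 37.2% rose and 36.7% fell. Mylk fell from 55.0 to 11.8 FPKM (-2.13 ± 0.11), and Myh14, the remaining non-muscle heavy chain, rose from 3.14 to 8.68 FPKM (1.23 ± 0.26), a level far under those of Myh9 and Myh10. Against whole body at E16.5, Myl12b (2.04 ± 0.08) and Myl6 (1.31 ± 0.07) were higher and Myl9, the smooth muscle light chain, lower (-2.26 ± 0.24).

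Serum response factor, its cofactors and known target genes outside the 10 fell in 9 of 13 tested and rose in 2 (median -0.54). Over all genes 36.7% fell and 37.2% rose. Cnn2 (calponin 2) went from 150.3 to 9.70 FPKM (-3.89 ± 0.27), Tagln2 from 76.4 to 7.06 (-3.28 ± 0.32), Cyr61 from 31.7 to 2.56 (-3.22 ± 0.33) and Tagln from 8.16 to 1.06 FPKM (-2.09 ± 0.33). Egr1 was above whole body at E16.5 (3.0 ± 0.41), at 40.3 against 3.91 FPKM. Actc1, the cardiac actin, was at 0.177 FPKM at E16.5 and 213 in whole body (-7.52 ± 0.24), and the 11 measured striated muscle markers summed to between 5.68 and 27.97 FPKM over all lens libraries and to between 663 and 701 in whole body.

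The genes whose pattern over the 15 libraries was most like each of the 10 were taken from 10980 others by Pearson's r of log2 values, as a description. The closest were Ctps2 for Actb (r = 0.951), Ngfrap1 for Actg1 (0.939), Smoc2 for Acta2 (0.965), Ssh2 for Tpm1 (0.995), Ston1 for Tpm2 (0.967), Mfsd10 for Tpm3 (0.975), Arhgap11a for Tpm4 (0.994), Cyfip1 for Myh9 (0.968), Adgra3 for Myh10 (0.996) and Clstn2 for Cald1 (0.984). The next in order were Ccm2 and Arhgef2, Tkfc and Pgam1, Hoxc8 and Hand2, Ube2d1 and Gjc1, Cabin1 and Ednrb, Vasp and Tuba1b, Tuba1c and Ets2, Grrp1 and Map3k11, Fgf13 and Sept11, and Syne1 and Sspn. The libraries of a group share their stage, so these values rest on 5 group means more than on 15 separate points. Smoc2, Hoxc8 and Hand2 share with Acta2 a high whole-body level, at 15.04, 18.7 and 18.1 FPKM, and Hoxc8 and Hand2 were listed at 0 in the lens from E12.5 on.

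Set against whole body, the 10 genes split 4 higher and 3 lower at E10.5 (24.6% and 31.2% of all genes), 3 and 5 at E12.5 (32.3% and 37.1%), 3 and 6 at E14.5 (35.7% and 42.6%) and 3 and 5 at E16.5 (36.8% and 43.4%). The 4 comparisons share the same whole-body libraries. Scaling moved these splits: after quantile normalization they were 2 and 5, 3 and 6, 2 and 8, and 1 and 8, and with crystallins left out 3 and 4, 3 and 5, 2 and 7, and 1 and 8. Leaving out crystallins moved the median of all genes by -0.18 at E12.5, by -0.40 in E14.5 lenses and by -0.47 at E16.5, and quantile normalization by 0.10 at E10.5 and 0.11 at E14.5. Between E16.5 and E10.5 both rescalings gave 2 higher and 7 lower, beside 2 and 5 with the values as deposited. At the gene level the falls of Tpm1, Tpm3, Tpm4, Myh9 and Myh10 and the rise of Cald1 over that interval kept their calls in all 25 alternative settings.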

How the data were processed

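Lens and whole-body RNA-seq of 15 libraries was analysed from the authors' deposited table of FPKM per transcript. Per the submitters' processing notes, Trimmomatic, TopHat2 2.0.9, Cufflinks and Cuffnorm were used with mm10; their order, settings and normalization are not given in the sources used here, and read depth is unknown. The sum of FPKM per library ran from 707562 to 1629915. Here a gene's FPKM is the sum over its transcripts, without 172 transcripts antisense to a reference gene. A filter of at least 1 FPKM in at least 3 of 15 libraries removed 80 genes, and 3 genes listed at 0 beside a replicate above 50 FPKM were left out. log2(FPKM + 1) was fitted with limma 3.58.1 (R 4.3.3; 1 mean per group, 10 residual degrees of freedom, trended eBayes) over 14532 genes, 46432 transcripts and 41864 transcript shares, with Benjamini-Hochberg adjustment and a threshold of 0.05. The scripts were tested on simulated data. Tables and figures used Python 3.11.15, pandas 2.3.3 and matplotlib 3.10.9.

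The p-values measure the spread between these samples. The genes and lists were chosen with earlier results of these data known. Transcripts were named at 10 FPKM in any library and a mean share of 5% in any group, pathway genes from those changed over 2-fold, and 3 like genes per gene from those with a mean of at least 10 FPKM. Other pseudocounts, filters, scalings, sample sets, a replicate block and leaving out each library were tried.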

Additional observations from a re-analysis of the deposited data

How the results depend on the processing

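Of the 80 differences tested for the 10 genes (10 genes in 8 comparisons), 54 were called and 42 of these kept direction and call in all 25 alternative settings, and 10 of the 26 not called stayed so. Quantile normalization reversed Actg1 against whole body at E10.5 (-0.053), E12.5 (-0.71), E14.5 (-0.94) and E16.5 (-1.07), from E12.5 to E14.5 (-0.24) and from E10.5 to E16.5 (-1.02), Tpm3 at E14.5 against whole body (-0.36) and Actb from E12.5 to E14.5 (-0.46). Leaving out crystallins reversed Actg1 at E14.5 (-0.06) and E16.5 (-0.20) against whole body, from E12.5 to E14.5 (-0.007) and from E10.5 to E16.5 (-0.43), and Tpm3 at E14.5 (-0.40) and Tpm2 at E16.5 (-0.195) against whole body. Counting only complete reference matches reversed Tpm2 at E10.5 against whole body (0.36) and from E10.5 to E16.5 (-0.25), since the 3 partial matches drop out. Leaving out single libraries, the difference of Acta2 from E10.5 ranged from -0.89 to 1.09 at E12.5 and from -0.765 to 1.21 at E16.5, the highest in both without replicate 3 of E10.5. For these reversals by scaling and library the cause was not tested.

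With a pseudocount of 0.1, called tropomyosin shares numbered 5 at E10.5 and 7 at E16.5 against whole body and 7 between them, beside 9, 12 and 13. With only the 2 groups compared in the fit, which leaves fewer samples, 3 genes were called from E12.5 to E14.5 (main 6), 0 from E14.5 to E16.5 (main 1) and 8 shares from E10.5 to E16.5. Only complete matches gave 0 genes from E14.5 to E16.5. Leaving out 1 library, called genes ranged against whole body from 5 to 9 at E10.5, 8 to 8 at E12.5, 9 to 9 at E14.5 and 7 to 9 at E16.5, and between stages from 8 to 9, 5 to 6, 0 to 2 and, over the whole span, 7 to 8. Called tropomyosin transcripts ranged from 9 to 12, 14 to 16 and 14 to 19, and shares from 6 to 10, 9 to 13 and 9 to 14.

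The labels do not say whether same-numbered replicates share a litter or day. The correlation of their deviations ran from -0.0946 to 0.2373 over 30 pairs, above 0.1 in 4. With 3 libraries per group this cannot decide whether the samples were paired. With the replicate number as a block, Actg1 from E12.5 to E14.5 (0.24, adjusted p = 0.0556 in limma) was the only one of the 54 gene calls lost. Depth is unknown, so no limit of detection can be given.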
